A study of Mus musculus with 20 samples.

Results

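The antioxidant defence genes described here are Sod1, Sod2, Cat, Gpx1, Gpx4, Prdx3, Prdx5, Prdx6, Hmox1 and Nqo1. They were chosen by name, as enzymes that remove superoxide and peroxides or as targets of the transcription factor Nrf2, by a rule that uses no measured value, although earlier results of these data were known when it was written. They are 10 of the 33119 genes with a row in the deposited table, and all 10 were among the 21724 genes that passed the filter on low counts. Superoxide, formed mostly at the respiratory chain, is turned into hydrogen peroxide by the superoxide dismutases, and catalase, the glutathione peroxidases and the peroxiredoxins then reduce hydrogen peroxide and lipid peroxides. Nrf2 is held in the cytosol by Keap1 and, once released by oxidative or electrophilic stress, switches on a set of protective genes of which Hmox1 and Nqo1 are classical readouts. Brain tissue uses much oxygen and is rich in polyunsaturated lipids, and its neurons rely heavily on glutathione and peroxiredoxins because they hold little catalase.

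RNA was sequenced from the whole hippocampus of 20 mice at 16 months of age. Each sex and genotype gave 5 mice: the males with hAPOE3 are named S154 to S158 and those with hAPOE4 S174 to S178, and the females are S144 to S148 with hAPOE3 and S164 to S168 with hAPOE4. All mice had a C57BL/6 background, came from Taconic and were homozygous for human APOE3 or human APOE4 placed at the mouse Apoe locus by targeted replacement. The human gene was therefore present in all cells and in all 4 groups, and mice that keep mouse Apoe were not analysed here. The deposited values are the estimated counts per gene made by the authors with Salmon and tximport, and levels are given below as CPM, counts scaled to a common library size, after TMM normalization. All 8 listed markers of hippocampal neurons were detected in each of the 20 mice, between 7.77 and 411 CPM. Their sum was 559 to 658 CPM in S178, S158, S176 and S157, against 798 to 1131 CPM in the other mice. The part of this difference in the levels of the members was not tested.

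Totals ran from 35778879 to 52520279 counts per mouse, and the lowest count of any member in any mouse was 112, for Hmox1. Several libraries stood apart from the others of their group. In 5 hAPOE3 mice, the males S156, S157 and S158 and the females S147 and S148, the score of 58 nuclear oxidative phosphorylation genes (mean log2 CPM, centred per gene) was between 0.27 and 0.42, against -0.32 to 0.05 in the other 15 mice. In the same 5 libraries genes with short transcripts were high as a class: Spearman's rho across 10246 genes between the longest transcript of a gene and its log2 CPM minus the mean of the 20 mice lay between -0.67 and -0.52, against 0.42 to 0.67 in the other 5 hAPOE3 mice and -0.37 to 0.55 in the 10 hAPOE4 mice. Of the hAPOE4 males, 4 (S175 to S178) had oocyte transcripts. The 24 listed oocyte genes summed to between 29.2 and 48.8 CPM in them, against 5.83 to 8.63 CPM in the other 16 mice. Not all of the list was high: Omt2a reached 40.5 CPM, but Zp1, Zp2, Zp3 and Figla stayed at or below 0.731 CPM in every mouse. The sum of 12 choroid plexus markers ran from 80.3 to 6659 CPM over the 20 mice, with all 12 detected in every mouse.

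The members lie on 8 chromosomes of GRCm38. The dismutase genes are at chr16:90220754-90226329 (Sod1, plus strand) and chr17:13006846-13040063 (Sod2, plus strand), and Cat is at chr2:103453849-103485160 (minus strand). Gpx1 is at chr9:108338903-108340343 and Gpx4 at chr10:80047166-80056439, both on the plus strand. The peroxiredoxin genes, all on the minus strand, are at chr19:60864051-60874556 (Prdx3), chr19:6906697-6910106 (Prdx5) and chr1:161240112-161251219 (Prdx6), and the Nrf2 targets both lie on chromosome 8, Hmox1 at chr8:75093621-75100589 (plus strand) and Nqo1 at chr8:107388225-107403206 (minus strand).

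Both glutathione peroxidases among the members are selenoproteins, whose active site selenocysteine is read from a TGA codon that would otherwise stop translation. The codon of Gpx1 lies in exon 1 of Gpx1-201 at chr9:108339451-108339453 and that of Gpx4 in exon 3 of Gpx4-201 at chr10:80054737-80054739, both on the plus strand of GRCm38 and inside the coding sequence. They are shown, from the GENCODE M21 transcripts, with 21 bases on either side and the codon in capitals, because these are the residues through which both enzymes depend on selenium.
Gpx1: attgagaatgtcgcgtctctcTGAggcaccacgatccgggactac
Gpx4: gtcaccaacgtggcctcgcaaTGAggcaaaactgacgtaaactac

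Of the 10 members, 8 had a promoter in the RefSeq table of GRCm38.p6 (250 bases before to 50 after the transcription start), with 11 windows in all because Gpx4 had 4; Prdx6 and Hmox1 had no entry. The windows of Sod1 (chr16:90220512-90220811, plus strand), Sod2 (chr17:13007589-13007888, plus strand) and Prdx5 (chr19:6910057-6910356, minus strand) are shown because Sod1 and Prdx5 were high in the same 5 hAPOE3 mice and Sod2 was not. Gpx1, Gpx4 and Prdx6 were high in those mice too, and a link to promoter sequence was not tested. Capitals mark the core of the antioxidant response element bound by Nrf2, spelled TGACNNNGC, and the GC box GGGCGG, each searched on both strands, and neighbouring GC boxes can overlap.
Sod1: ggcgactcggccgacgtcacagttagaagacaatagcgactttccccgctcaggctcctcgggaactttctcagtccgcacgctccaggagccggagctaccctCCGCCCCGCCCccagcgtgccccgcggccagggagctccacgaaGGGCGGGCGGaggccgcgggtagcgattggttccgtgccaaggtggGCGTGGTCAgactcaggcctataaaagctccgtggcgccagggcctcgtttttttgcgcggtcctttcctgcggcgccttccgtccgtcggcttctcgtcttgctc
Sod2: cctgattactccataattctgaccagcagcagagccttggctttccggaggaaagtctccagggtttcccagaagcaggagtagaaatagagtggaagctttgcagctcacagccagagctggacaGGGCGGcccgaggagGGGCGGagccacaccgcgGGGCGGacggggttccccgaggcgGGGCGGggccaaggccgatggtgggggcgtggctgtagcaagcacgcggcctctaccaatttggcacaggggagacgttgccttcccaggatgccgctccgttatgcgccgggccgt
Prdx5: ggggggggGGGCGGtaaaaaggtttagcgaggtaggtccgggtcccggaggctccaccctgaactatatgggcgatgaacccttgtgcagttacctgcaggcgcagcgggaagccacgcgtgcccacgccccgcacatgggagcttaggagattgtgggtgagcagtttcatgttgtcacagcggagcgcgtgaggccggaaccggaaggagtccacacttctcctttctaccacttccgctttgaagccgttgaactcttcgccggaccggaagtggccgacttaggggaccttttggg
The letters TGACNNNGC were found in 1 of the 11 member windows, that of Sod1, and in 12.4% of the 32851 promoters in the table. GGGCGG was found in 10 of the 11 windows, with at least 1 window of each of the 8 genes, and in 35.7% of all promoters. These shares are not matched for GC content, whose median was 62.0% in the member windows and 52.7% over all promoters. Some windows of Gpx4 also overlap each other. A match is a match of letters and not a measured site. Sequence outside the windows was not searched, so a window without a match does not show that a gene lacks the element.

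Levels differed widely between the members. On a scale of CPM per kilobase of the longest coding transcript, which allows genes to be compared, the mean level over the 20 mice was 236 ± 50.4 (SD, n = 20) for Sod1, 169 ± 52.1 for Gpx4, 105 ± 25.8 for Prdx5 and 88.2 ± 10.3 for Prdx6. Below them came Gpx1 at 36.4 ± 9.47, Prdx3 at 35.5 ± 3.80, Sod2 at 25.9 ± 1.85 and Cat at 16.5 ± 1.98 CPM per kilobase. The Nrf2 targets Nqo1, at 3.15 ± 0.756, and Hmox1, at 2.83 ± 0.676, were lowest. The order was the same in all 20 mice for most neighbours, but Prdx5 was above Prdx6 in 17 of 20 mice, Nqo1 above Hmox1 in 15 of 20 and Gpx1 above Prdx3 in 8 of 20, so that these neighbours were not separated. Sod2 was low on this scale partly by construction, since its longest transcript of 5861 bases, set against 641 for Sod1, is the divisor, and by CPM alone the 2 dismutases had means of 152 and 151.

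In none of the 7 comparisons did a member pass the threshold of adjusted p 0.05 (edgeR quasi-likelihood test, Benjamini-Hochberg over 21724 genes), and DESeq2 called 0 of 10 in each as well. Between the genotypes, 0 of 10 members were called in males (0.621% of all genes were called), in females (0.667%) and in both sexes together (2.45%). Between the sexes, 0 of 10 were called in hAPOE3 mice (0.0414% of all genes), in hAPOE4 mice (0.437%) and in both genotypes together (0.129%), and 0 of 10 in the interaction of sex and APOE (0.184%). At an unadjusted p under 0.05, the members below the threshold were 2 of 10 between the genotypes in males (9.06% of all genes), 1 in females (10.1%) and 3 in both sexes together (17.9%). They were 1 of 10 between the sexes in hAPOE3 mice (5.22%), 0 in hAPOE4 mice (5.80%), 0 in both genotypes together (10%) and 0 in the interaction (2.54%). No member had groups of 5 without overlap, against 1.44% of all genes between the genotypes in males, 3.27% in females, 0.723% between the sexes in hAPOE3 mice and 0.723% in hAPOE4 mice.

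**Figure D1:**
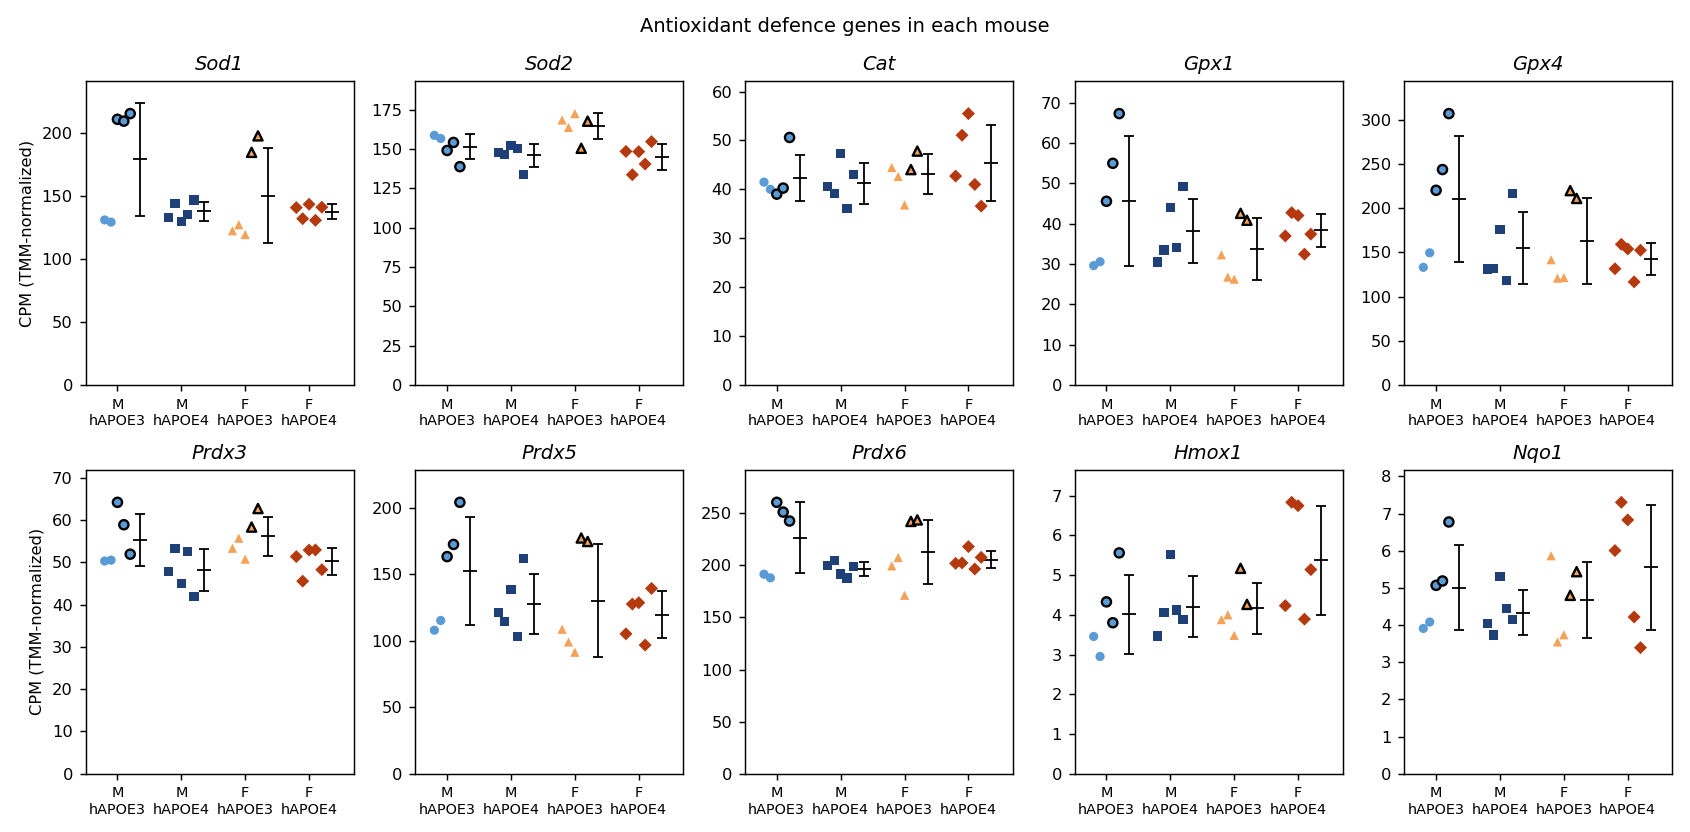
TMM-normalized CPM (vertical axes, from 0, different for each gene) of the 10 members in each of the 20 mice, by group. Each symbol is a mouse, bars show the mean ± SD of 5 mice, and black outlines mark the 5 hAPOE3 mice with a nuclear oxidative phosphorylation score between 0.27 and 0.42. In Sod1, Gpx1, Gpx4, Prdx5 and Prdx6 the outlined mice lie above the other hAPOE3 mice, and no gene separates a pair of groups.

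Sod1 encodes the copper-zinc superoxide dismutase of the cytosol and the space between the mitochondrial membranes. Its level was 131, 129, 211, 209 and 215 CPM in the hAPOE3 males and 132.9, 144.2, 129.4, 135.0 and 146.7 CPM in the hAPOE4 males. The hAPOE4 males all lay within the range of the hAPOE3 males, which fell into a low pair and 3 high mice with nothing between. The difference between hAPOE4 and hAPOE3 males was -0.38 on the log2 scale (SE 0.16, edgeR adjusted p = 0.473). In females Sod1 was at 122, 127, 119, 185 and 198 CPM in hAPOE3 mice and at 141, 132, 143, 131 and 141 CPM in hAPOE4 mice. The hAPOE4 females lay in the gap between the 3 low and the 2 high hAPOE3 females. The log2 difference between the genotypes was -0.13 in females (SE 0.16, edgeR adjusted p = 0.857) and -0.25 in both sexes together (SE 0.11, edgeR adjusted p = 0.231). The sexes of hAPOE4 mice were close in Sod1, at 137.5 ± 5.81 CPM in females and 137.6 ± 7.45 CPM in males (SD, n = 5 each), with a log2 difference of 0.00 (95% interval -0.33 to 0.32). In bulk tissue fewer cells of a type and less RNA per cell cannot be told apart, here and for every member below.

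The 5 high hAPOE3 mice were those whose libraries stood apart, and Sod1 was at 185 to 215 CPM in them, above all other 15 mice. With these 5 mice left out, which was chosen after seeing the data and is given with no test because a measured value selected the mice, the log2 difference of Sod1 between the genotypes became 0.07 in males, 0.16 in females and 0.12 in both sexes together. With the nuclear oxidative phosphorylation score as a covariate it was -0.11 in males, -0.08 in females and -0.09 in both sexes together.

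Sod2, the manganese superoxide dismutase of the mitochondrial matrix, was the steadiest member, with a coefficient of variation of 7.12% over the 20 mice. It was at 168.6, 163.8, 172.6, 150.6 and 167.8 CPM in hAPOE3 females and at 148.6, 133.8, 148.4, 140.5 and 154.8 CPM in hAPOE4 females. Of the hAPOE3 females 4 lay above all hAPOE4 females, and the groups overlapped through mouse S147 alone. The log2 difference was -0.18 (SE 0.07, edgeR adjusted p = 0.299), the lowest unadjusted p of a member in females. In males Sod2 was at 158.8, 156.8, 149.2, 154.3 and 138.9 CPM in hAPOE3 mice and at 147.9, 146.4, 152.5, 150.5 and 133.8 CPM in hAPOE4 mice. Of the hAPOE3 males 3 lay above all hAPOE4 males and the groups overlapped in the rest, with a log2 difference of -0.05 (95% interval -0.19 to 0.09), and the interaction of sex and APOE was -0.13 (SE 0.09, edgeR adjusted p = 1.00). Over both sexes the genotype difference of Sod2 was -0.12 (SE 0.05, edgeR adjusted p = 0.194). Hence Sod2 differed from Sod1 in which mice were high: the 5 hAPOE3 mice that were high in Sod1 had 138.9 to 167.8 CPM of Sod2, inside and below the 156.8 to 172.6 CPM of the other hAPOE3 mice. With those mice left out the genotype difference of Sod2 was -0.12 in males and -0.21 in females, again with no test. Between hAPOE3 females and hAPOE3 males Sod2 differed by 0.12 (SE 0.07, edgeR adjusted p = 0.805), and between hAPOE4 females and hAPOE4 males by -0.01 (95% interval -0.15 to 0.13).

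Catalase, the peroxisomal enzyme that splits hydrogen peroxide, ranged from 36.1 to 55.5 CPM over the 20 mice. In males its mean was 42.3 ± 4.74 CPM with hAPOE3 and 41.2 ± 4.20 CPM with hAPOE4, and in females 43.2 ± 4.03 CPM with hAPOE3 and 45.4 ± 7.72 CPM with hAPOE4 (SD, n = 5 each). The 4 groups overlapped, and the genotype difference of Cat over both sexes was 0.02 on the log2 scale, with a 95% interval of -0.14 to 0.18. The highest values of Cat, 55.5 and 51.1 CPM, were those of the hAPOE4 females S166 and S165, which also had the highest sums of choroid plexus markers, 6659 and 6316 CPM.

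Gpx1, the glutathione peroxidase of cytosol and mitochondria, was at 29.6, 30.6, 45.5, 55.0 and 67.3 CPM in hAPOE3 males and at 32.3, 26.8, 26.2, 42.5 and 40.8 CPM in hAPOE3 females. In each sex the 3 or 2 libraries that stood apart were the highest, and the groups overlapped. Gpx1 had the lowest unadjusted p between the sexes in hAPOE3 mice, with a log2 difference between females and males of -0.43 (SE 0.20, edgeR adjusted p = 0.805). It was at 30.5, 33.5, 44.0, 34.1 and 49.2 CPM in hAPOE4 males and at 36.9, 42.7, 42.0, 32.4 and 37.4 CPM in hAPOE4 females, which overlapped throughout. The females minus males difference in hAPOE4 mice was 0.00 (95% interval -0.42 to 0.42), the interaction was 0.44 (SE 0.29, edgeR adjusted p = 1.00), and the sex difference over both genotypes was -0.22 (SE 0.14, edgeR adjusted p = 0.651). Between the genotypes Gpx1 differed by -0.25 in males and 0.18 in females (edgeR adjusted p = 0.685 and 0.834). Without the 5 hAPOE3 mice these differences were 0.34 and 0.43, and the sex difference in hAPOE3 mice went from -0.43 to -0.07. With the choroid plexus score as a covariate the sex difference went the other way, to -0.61 in hAPOE3 mice (edgeR adjusted p = 0.264) and to -0.41 over both genotypes (edgeR adjusted p = 0.105).

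Gpx4, which reduces lipid peroxides within membranes and protects cells from ferroptosis, was at 133.1, 149.6, 220.3, 243.8 and 307.1 CPM in hAPOE3 males and at 131.4, 131.7, 175.8, 118.7 and 217.0 CPM in hAPOE4 males. Its high mice were S156, S157 and S158 in the first group and S178 in the second. The log2 difference between the genotypes in males, -0.44 (SE 0.22, edgeR adjusted p = 0.559), was the largest of the members in that comparison and had the widest 95% interval, -0.91 to 0.02. In females Gpx4 was at 142, 121, 122, 220 and 211 CPM in hAPOE3 mice and at 131.6, 159.2, 153.96, 116.7 and 152.5 CPM in hAPOE4 mice. The hAPOE4 females overlapped the 3 low hAPOE3 females and stayed below the 2 high ones, with a log2 difference of -0.19 (SE 0.22, edgeR adjusted p = 0.844). Without the 5 hAPOE3 mice that stood apart the difference of Gpx4 turned to 0.12 in males and 0.16 in females, with no test, and with the oxidative phosphorylation score as a covariate it was -0.11 in males and -0.13 in females. Over both genotypes Gpx4 had the lowest unadjusted p between the sexes, with a difference of -0.24 (SE 0.16, edgeR adjusted p = 0.642). Gpx4 followed Gpx1 closely: the Pearson correlation of their log2 CPM over the 20 mice, group means removed, was 0.97, and Gpx1 was the only one of the 10 members with another member among its 2 nearest genes.

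Prdx3 is the peroxiredoxin of the mitochondrial matrix. It was at 50.3, 50.5, 64.2, 58.9 and 51.9 CPM in hAPOE3 males and at 47.8, 53.3, 44.9, 52.6 and 42.0 CPM in hAPOE4 males. Of the hAPOE4 males 3 lay below all hAPOE3 males and the other 2 above 3 of them. The log2 difference was -0.20 (SE 0.09, edgeR adjusted p = 0.514). In females it was at 53.3, 55.7, 50.8, 58.3 and 62.7 CPM in hAPOE3 mice and at 51.4, 45.6, 52.9, 52.9 and 48.3 CPM in hAPOE4 mice, where 4 hAPOE3 females lay above all hAPOE4 females and S146 among them. The difference in females was -0.16 (SE 0.09, edgeR adjusted p = 0.570). Over both sexes Prdx3 had the lowest unadjusted p of the members, with a difference of -0.18 (SE 0.06, edgeR adjusted p = 0.131), and the interaction was 0.03 (95% interval -0.23 to 0.29). Without the 5 hAPOE3 mice that stood apart, the difference was -0.08 in males, -0.08 in females and -0.08 over both sexes.

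Prdx5, a peroxiredoxin of mitochondria, peroxisomes and cytosol, ranged from 91.5 to 204 CPM, and Prdx6, the peroxiredoxin that also has phospholipase activity, from 171 to 261 CPM. In the 5 hAPOE3 mice that stood apart Prdx5 was at 163 to 204 CPM, above all other mice, of which the other hAPOE3 mice had 91.5 to 115 CPM and the hAPOE4 mice 96.9 to 162 CPM. Prdx6 behaved in the same way, at 242 to 261 CPM in those 5 mice, 171 to 208 CPM in the other hAPOE3 mice and 188 to 218 CPM in the hAPOE4 mice. The genotype difference of Prdx6 was -0.21 in males (SE 0.10, edgeR adjusted p = 0.559) and -0.05 in females (SE 0.10, edgeR adjusted p = 0.920). That of Prdx5 was -0.26 in males (SE 0.20, edgeR adjusted p = 0.681) and -0.12 in females (SE 0.20, edgeR adjusted p = 0.898). Without the 5 hAPOE3 mice these directions turned, with no test, to 0.04 in males and 0.09 in females for Prdx6 and to 0.18 in males and 0.26 in females for Prdx5. Exons of Prdx5 share 409 of 2139 bases with Trmt112 on the opposite strand, which was at 11.6 to 28.2 CPM, and the strandedness of the libraries is not given in the sources used here. The near copies of members with rows of their own were hardly detected, with 0 to 9 counts for Prdx6b, 0 to 4 for Prdx6-ps2 and 0 to 12 for Gpx4-ps2.

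Hmox1, the inducible enzyme that degrades heme, was at 3.88, 3.999, 3.48, 5.17 and 4.26 CPM in hAPOE3 females and at 4.23, 6.83, 6.75, 3.89 and 5.14 CPM in hAPOE4 females. Mice S165 and S166 of the second group were above all others, and its other 3 mice lay among the hAPOE3 females. The log2 difference was 0.37 (SE 0.19, edgeR adjusted p = 0.538), with a 95% interval of -0.03 to 0.76. In males Hmox1 was at 3.46, 2.95, 4.33, 3.80 and 5.56 CPM in hAPOE3 mice and at 3.46, 4.06, 5.51, 4.12 and 3.88 CPM in hAPOE4 mice, which overlapped throughout. The genotype difference in males was 0.06 (95% interval -0.33 to 0.46). Between hAPOE4 females and hAPOE4 males Hmox1 differed by 0.35 (SE 0.19, edgeR adjusted p = 0.937), the lowest unadjusted p of the members in that comparison.

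Nqo1, a quinone reductase, was at 4.04, 3.73, 5.31, 4.46 and 4.14 CPM in hAPOE4 males and at 6.01, 7.30, 6.83, 4.22 and 3.39 CPM in hAPOE4 females. The females spanned the males on both sides, with S164, S165 and S166 above all of them. The log2 difference was 0.36 (SE 0.21, edgeR adjusted p = 0.975). In hAPOE3 mice Nqo1 was at 3.91, 4.08, 5.07, 5.19 and 6.78 CPM in males and at 5.87, 3.55, 3.74, 4.801 and 5.44 CPM in females, where the groups overlapped with 1 male above and 2 females below all mice of the other sex. The genotype difference of Nqo1 was -0.21 in males and 0.25 in females, and the interaction, 0.45 (SE 0.29, edgeR adjusted p = 1.00), had the lowest unadjusted p of the members and a 95% interval of -0.15 to 1.06.

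Choroid plexus markers varied beside Nqo1 and, less evenly, beside Hmox1. In the hAPOE4 females with the 3 highest values of Nqo1 the 12 markers summed to 4724, 6316 and 6659 CPM, and in the other 2 to 535 and 104 CPM. Hmox1 was highest in the 2 of these females with the largest sums, S165 and S166, but S168, with a sum of 104 CPM, had more Hmox1 (5.14 CPM) than S164, with a sum of 4724 CPM (4.23 CPM). In hAPOE4 males the sum was 2942 CPM in S176, the male with the highest Hmox1 and Nqo1, and 122 to 811 CPM in the others. With the choroid plexus score as a covariate the difference of Nqo1 between hAPOE4 females and males went from 0.36 to 0.01, that of Hmox1 from 0.35 to 0.17 and that of Cat from 0.14 to -0.02. The genotype difference in females went from 0.25 to 0.14 for Nqo1 and from 0.37 to 0.32 for Hmox1 with this covariate. With an oocyte gene score as a covariate instead, hAPOE4 females and males differed by 0.52 in Nqo1, 0.55 in Hmox1 and 0.18 in Cat. That score was high only in the males S175 to S178, so these values rest largely on S174 for the hAPOE4 males. The part of choroid plexus and of the oocyte transcripts in these differences was not tested.

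**Figure D2:**
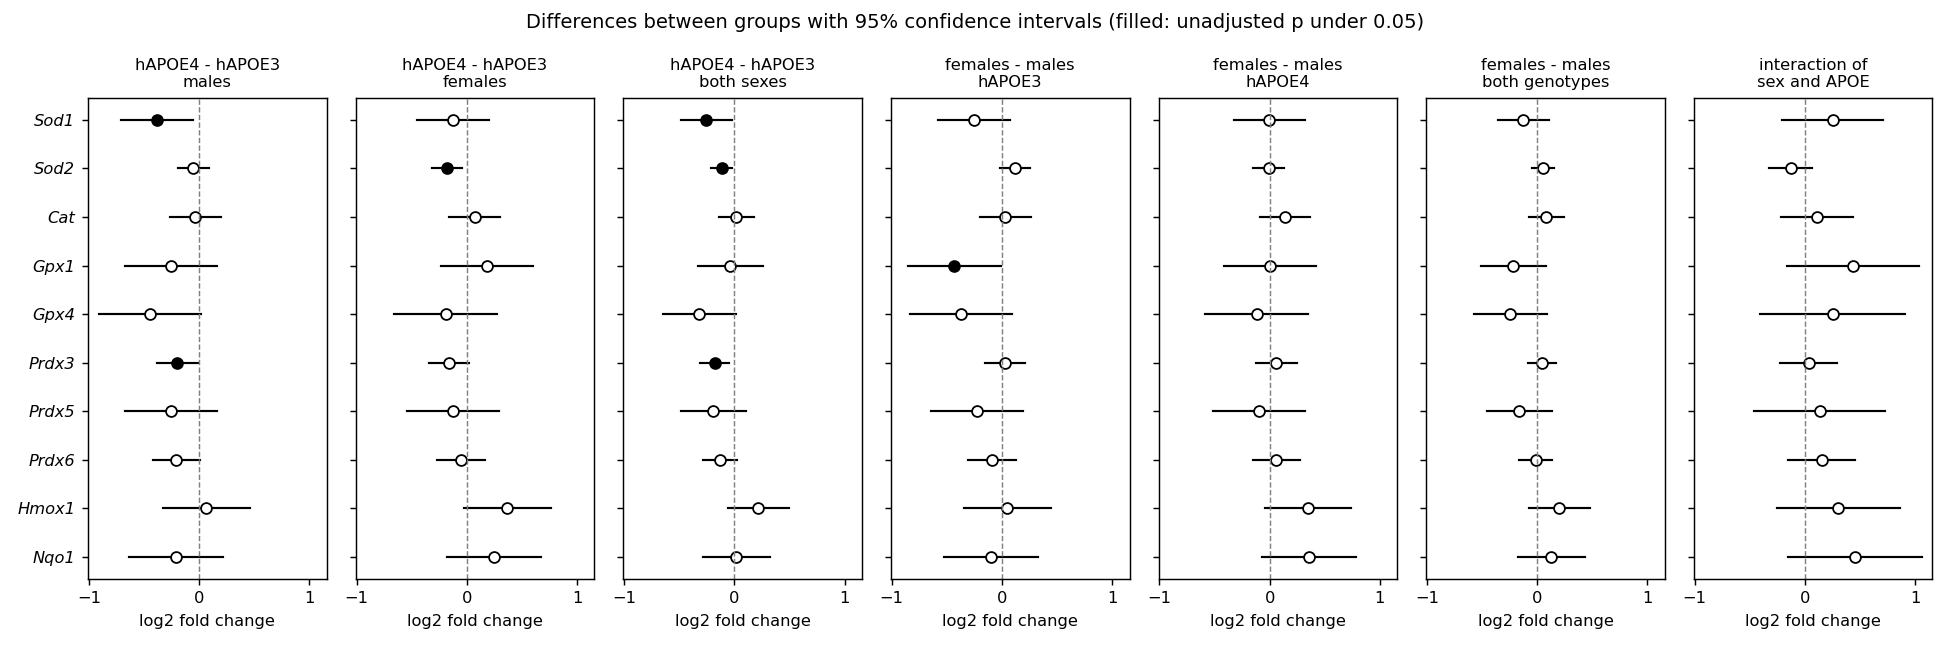
Log2 fold change (horizontal axes) of each member in the 7 comparisons, with the 95% confidence interval of the edgeR fit, and filled symbols where the unadjusted p was under 0.05. The intervals of Sod2 are narrow and those of Gpx4 and Nqo1 wide, and 0 members passed the adjusted threshold in any panel.

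By direction, the fold change of 9 of 10 members was below 0 between hAPOE4 and hAPOE3 males, with a median log2 difference of -0.21 against 0.00 over all genes tested, and Hmox1 was the exception. In females 6 of 10 were lower, with a median of -0.09 against 0.00, and over both sexes 7 of 10 were lower (9 of 10 with upper quartile normalization), with a median of -0.12 against 0.00. Females were below males for 6 of 10 members in hAPOE3 mice (median -0.09) and for 4 of 10 in hAPOE4 mice (median 0.03). The comparisons in males and in females share no mouse, whereas the comparisons between sexes use the same 20 mice. Without the 5 hAPOE3 mice that stood apart, 8 of 10 members were higher in hAPOE4 mice in each sex. Their median was 0.09 in males and 0.16 in females. These mice were left out of 1 genotype only and by a measured score, so no conclusion on direction is drawn. In males 6 of 10 members were lower with the oxidative phosphorylation score as a covariate (median -0.07). With an oocyte gene score as a covariate 10 of 10 were lower (median -0.29). That score was 1.33 to 2.12 in the hAPOE4 males S175 to S178 and at most -0.10 in all other mice. It thus nearly marks these males, and the adjusted difference rests largely on the remaining hAPOE4 male, S174. In males the 58 nuclear oxidative phosphorylation genes had a median difference of -0.26, with 55 of 58 lower and 0 past the threshold.

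The distance from 0 that the intervals reached differed between the members. In males the smallest reach of a 95% interval was 0.19, for Sod2, and the largest 0.91, for Gpx4. In females the smallest was 0.27 for Prdx6 and the largest 0.76 for Hmox1, and between the sexes 0.21 for Prdx3 and 0.86 for Gpx1 in hAPOE3 mice and 0.15 for Sod2 and 0.78 for Nqo1 in hAPOE4 mice. In the interaction the intervals were widest, and that of Nqo1 reached 1.06.

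**Figure D3:**
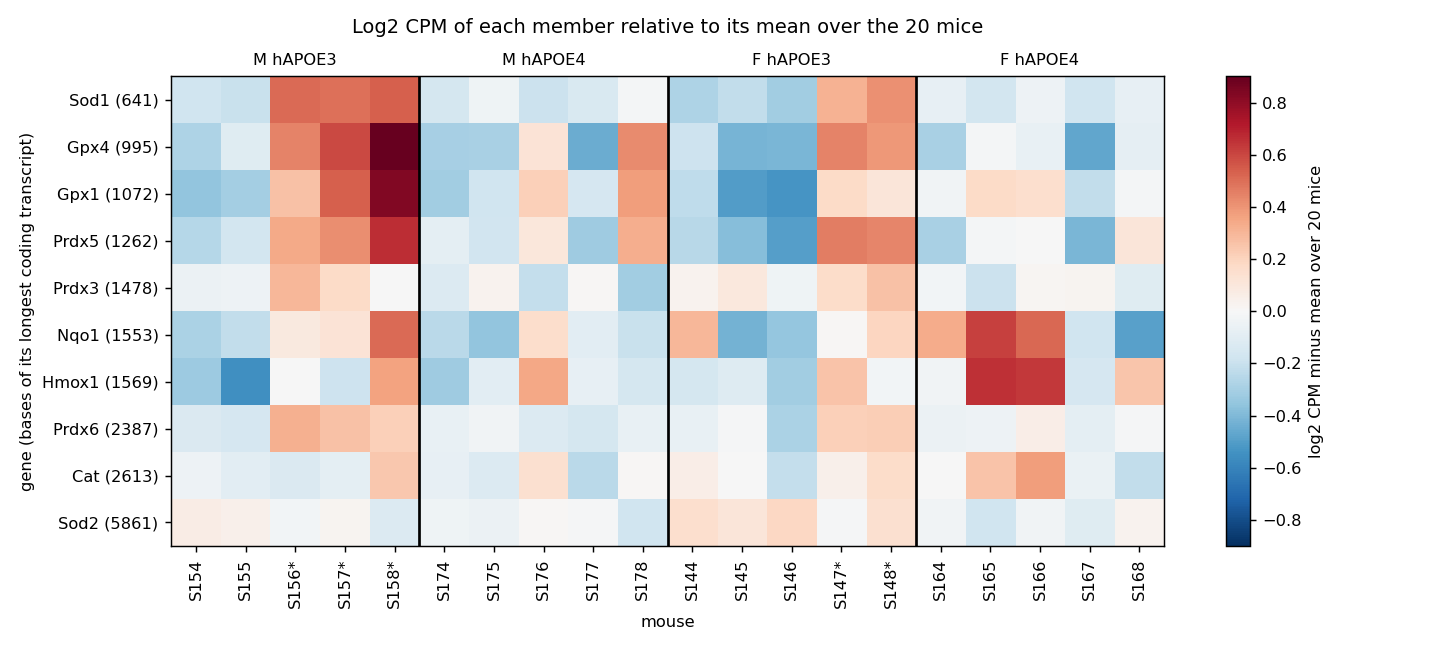
Colours give log2 CPM of each member minus its mean over the 20 mice (rows, ordered by the longest coding transcript, in bases) for each mouse (columns, by group). Asterisks mark the 5 hAPOE3 mice with a nuclear oxidative phosphorylation score between 0.27 and 0.42, which are high in the 4 members with the shortest transcripts and in Prdx6, while S165 and S166 are high in Nqo1, Hmox1 and Cat.

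The members split by how they behaved within hAPOE3 mice. In Sod1, Gpx1, Gpx4, Prdx5 and Prdx6 the 5 mice that stood apart and the other 5 hAPOE3 mice did not overlap, and in Sod2, Cat, Prdx3, Hmox1 and Nqo1 they did. The share of all genes without overlap between these mice was not counted, so the split is not shown to be particular to the members. The 4 members with the shortest coding transcripts, Sod1 at 641 bases, Gpx4 at 995, Gpx1 at 1072 and Prdx5 at 1262, were all in the first set, beside Prdx6 at 2387 bases. The second set held Prdx3 at 1478, Nqo1 at 1553, Hmox1 at 1569, Cat at 2613 and Sod2 at 5861 bases, and the median over the 10246 genes compared was 3510 bases. These mice were picked out by measured values, so their levels are given as a description, with no test, and the part of transcript length or RNA quality in the levels of the members was not tested.

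**Figure D4:**
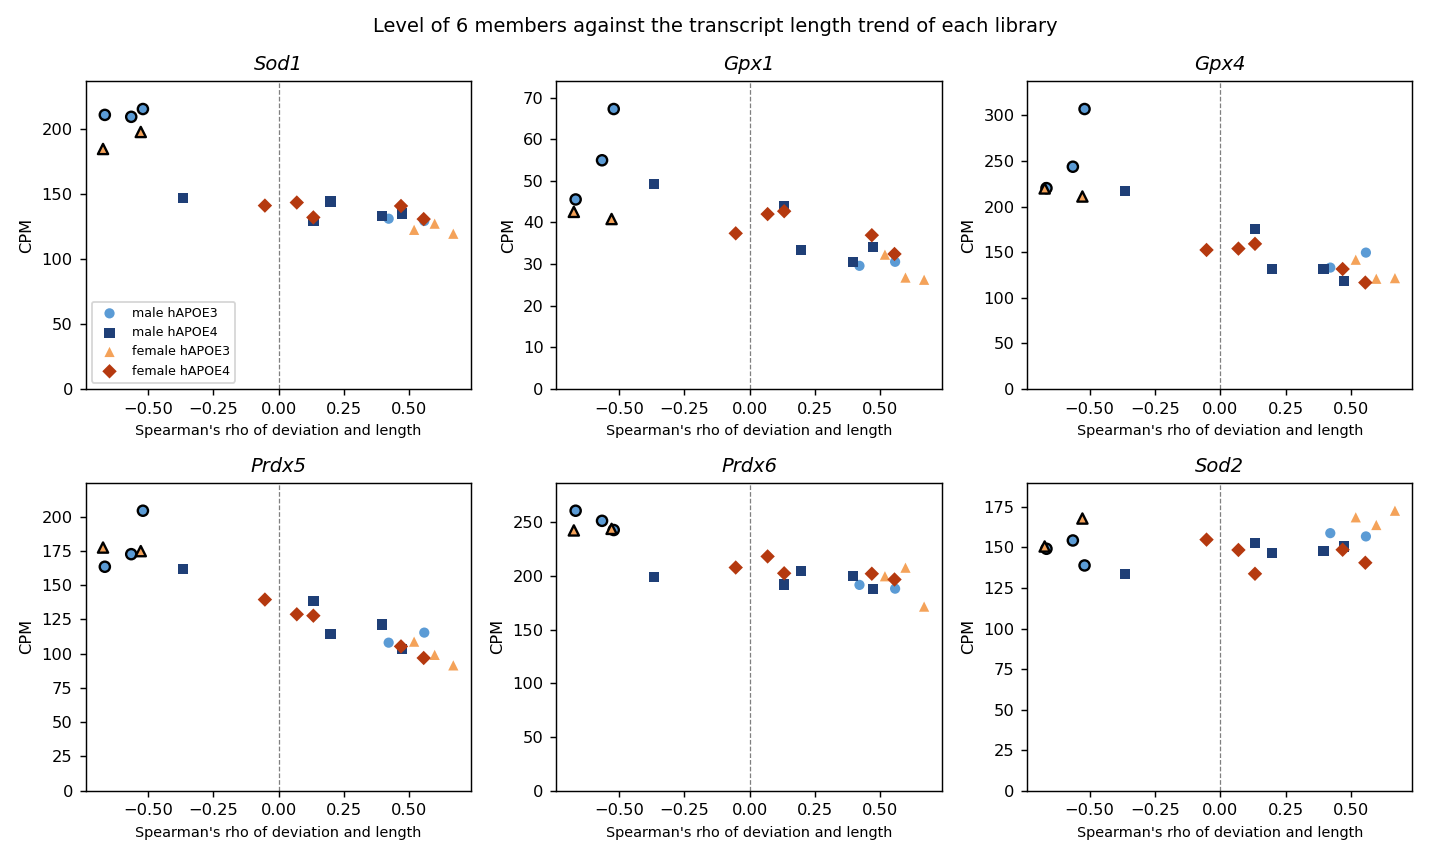
CPM of 6 members (vertical axes, from 0) against Spearman's rho, across 10246 genes, between transcript length and the deviation of log2 CPM in the same library (horizontal axes); each symbol is a mouse and black outlines mark the 5 hAPOE3 mice with a high nuclear oxidative phosphorylation score. The 5 outlined mice, with rho between -0.67 and -0.52, are above the other hAPOE3 mice in Sod1, Gpx1, Gpx4, Prdx5 and Prdx6 and not in Sod2.

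The hAPOE4 mice did not form such clusters, so correlations between members were computed over these 10 mice, with group means removed and 45 pairs tested by permutation with 100000 resamples. Of the 45 pairs 29 were positive, and 4 had an adjusted p under 0.05 for Pearson's r. Of these, 1 also passed for Spearman's rho. The share of all gene pairs that would pass was not counted, so these counts are not shown to be particular to the members. Gpx1 and Gpx4 had r = 0.93 (permutation adjusted p = 0.00315) and Spearman's rho = 0.92 (permutation adjusted p = 0.0257). Gpx4 and Prdx5 had r = 0.94 (permutation adjusted p = 0.00315) and rho = 0.85 (permutation adjusted p = 0.0621). Prdx3 ran against Gpx4, with r = -0.85 (permutation adjusted p = 0.0330) and rho = -0.81 (permutation adjusted p = 0.108). Cat and Nqo1 had r = 0.83 (permutation adjusted p = 0.0378) and rho = 0.73 (permutation adjusted p = 0.143). Without the 2 mice farthest from the median of the first gene of each pair as named here, r was 0.92 for Gpx1 and Gpx4, 0.89 for Gpx4 and Prdx5, -0.70 for Gpx4 and Prdx3 and 0.69 for Cat and Nqo1. The mice behind these values also differed in the length trend and in choroid plexus markers, whose part was not tested.

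The genes whose log2 CPM followed each member most closely over the 20 mice, among all with a mean of at least 10 CPM and with group means removed, are given as a description. For Sod1 they were Ndufa6, a subunit of complex I (r = 0.99), and Psmb6, a subunit of the proteasome (r = 0.99). For Prdx5 they were Chchd2 (r = 0.99) and Stmn3 (r = 0.99), for Gpx4 Tbcb (r = 0.98) and Tmem147 (r = 0.98), for Gpx1 Gpx4 (r = 0.97) and Avpi1 (r = 0.97), and for Prdx6 Cst3 (r = 0.96) and Chmp2a (r = 0.96). Prdx3 was followed by Rsl1d1 (r = 0.95) and Glrx3 (r = 0.93), and Sod2, less closely, by Ppm1a (r = 0.85) and 1190002N15Rik (r = 0.82). The epoxide hydrolase gene Ephx1 was near both Cat (r = 0.90, after Slc16a6 at 0.92) and Nqo1 (r = 0.92, with Hist1h1c at 0.92), and Hmox1 was followed by Creld2 (r = 0.87) and Lgmn (r = 0.86). All of these r rest on the same 20 libraries, with the differences between libraries given above.

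The rest of the antioxidant system was taken from lists written by hand: 65 other genes were tested, among them those of glutathione synthesis, the thioredoxin system, selenoprotein synthesis, metallothioneins and Nrf2 with its regulators. In each of the 7 comparisons 0 of the 65 passed the adjusted threshold (edgeR). Nfe2l2, which encodes Nrf2, was at 21.9 ± 3.79 CPM (SD, n = 20), and its genotype difference was -0.03 in males (SE 0.15, edgeR adjusted p = 0.959) and 0.23 in females (SE 0.15, edgeR adjusted p = 0.659). Keap1 was at 58.3 ± 4.41 CPM (SD, n = 20), with genotype differences of 0.04 in males and 0.09 in females (edgeR adjusted p = 0.873 and 0.734). In males 44 of the 65 were lower in hAPOE4 mice (median -0.07), and 5 of the 65 had an unadjusted p under 0.05, beside 9.06% of all genes: the metallothionein genes Mt1 (-0.42) and Mt2 (-0.44), the methionine sulfoxide reductase genes Msra (-0.34) and Msrb1 (-0.36), and Fth1 (-0.39), the heavy chain of ferritin. In females 36 of the 65 were higher (median 0.01), and 1 had an unadjusted p under 0.05 (10.1% of all genes), Txnip, the inhibitor of thioredoxin (0.60, SE 0.23, edgeR adjusted p = 0.347). Txnip also had the lowest p of these genes over both sexes, with a log2 difference of 0.49 (SE 0.17, edgeR adjusted p = 0.120). These genes were named by their p after the values were seen. The 5 named in males had longest transcripts of 511 to 1860 bases, and for each the genotypes overlapped in males. The SD of each was larger in hAPOE3 males than in hAPOE4 males. Fth1, for example, was at 1595 to 3126 CPM in hAPOE3 males and at 1634 to 1831 CPM in hAPOE4 males. The part of the libraries S156, S157 and S158, in which genes with short transcripts were high, in these male differences was not tested.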

How the data were processed

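RNA of the hippocampus was sequenced by the authors from polyA libraries (paired-end reads, Illumina HiSeq). Their deposited estimated counts per gene, made with Salmon 0.91 from mouse cDNA of Ensembl and summed with tximport, hold whole numbers for 33119 genes, and no rounding was needed. The deposited DESeq2 normalized counts, a signal that the authors divided by factors differing between genes, served 1 alternative. The labels give 1 library per mouse and pair no mice.

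The test of the counts was that of edgeR 4.0.16 under R 4.3.3 (TMM, filterByExpr by group, glmQLFit and glmQLFTest, 4 group means, Benjamini-Hochberg over 21724 genes, threshold 0.05), a script also tested on simulated data. Intervals are 95% and use the t quantile of the fit. The 10 members and the gene lists were chosen with earlier results of these data known. Named were all members, per-mouse values for the 2 members of lowest unadjusted p in each comparison, Nfe2l2, Keap1, and the 2 genes most like each member; other genes were added after their values were seen. Alternatives covered DESeq2 1.42.0, normalization, filter, covariates and each mouse left out. Gene positions and lengths are those of GENCODE M21 (GRCm38). Protein sequences were not used here.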

Additional observations from a re-analysis of the deposited data

Results flagged for a closer look

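Of 40 sets of 5 values (10 members in 4 groups), 1 held a mouse far from the others: Cat in hAPOE3 males was at 50.6 CPM in mouse S158 against 39.0 to 41.5 CPM in the other 4, a gap of 0.788 of the whole range. The limit used to flag a set, which is below this gap, is passed by chance in about 1 of 20 sets of normally distributed values. S158 also had the highest sum of choroid plexus markers of the hAPOE3 males, 3341 CPM. Its Gpx1, Gpx4 and Prdx5 were the highest of all 20 mice, at 67.3, 307 and 204 CPM. The listed oligodendrocyte markers summed to 13420 CPM in S158, against 4217 to 9698 CPM in the other mice. Its sum of the listed neuron markers, 5777 CPM, was the lowest of all 20 mice. The part of these differences in the value of Cat was not tested. Without this mouse the genotype difference of Cat in males was 0.04 on the log2 scale, and -0.04 with it.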

How the results depend on the processing

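In each of the 7 comparisons 0 of 10 members passed the threshold under every alternative, those that leave out 1 mouse included. The lowest adjusted p of a member over all alternatives was 0.177 for the genotypes in males (Sod1, without mouse S155), 0.113 in females (Sod2, oxidative phosphorylation score as covariate) and 0.0907 in both sexes together (Prdx3, upper quartile normalization), by edgeR. Between the sexes it was 0.264 in hAPOE3 mice and 0.105 in both genotypes together (both Gpx1, choroid plexus score as covariate) and 0.438 in hAPOE4 mice, and in the interaction 0.993, by edgeR. Of 1810 log2 differences of single members 1695 kept their direction and 115 changed sign. Of these, 2 were differences with an unadjusted p under 0.05 before the change, both with the 5 hAPOE3 mice of high oxidative phosphorylation score left out, a choice made after seeing the data and given with no test: the genotype difference of Sod1 became 0.073 in males and 0.12 in both sexes. Leaving out the 4 hAPOE4 males with oocyte transcripts, also chosen after seeing the data, kept 1 male, assumed to vary like the other groups, and moved Gpx1 in males from -0.25 to -0.57. No paired analysis was possible because the labels give the groups no shared replicate numbers. With 5 mice a group the 95% intervals of the interaction reached furthest, to log2 differences of 1.03 for Gpx1 and 1.06 for Nqo1, and among the other comparisons that of Gpx4 in males, to -0.91.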
